A study of Mus musculus with 12 samples.

Results

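Cyclins and the cyclin-dependent kinases (CDKs) they switch on were examined in mouse embryonic stem cells (ESCs) that express PRAMEL7. The group comprised 10 genes, chosen by symbol: the 7 cyclin genes Ccnd1, Ccnd2, Ccnd3, Ccne1, Ccne2, Ccna2 and Ccnb1 and the 3 kinase genes Cdk1, Cdk2 and Cdk4. All 10 were among the 50978 genes of the deposited expression table and among the 12914 that passed the filter on low values (above 1 CPM in at least 2 libraries, where CPM is the read count of a gene scaled to a common library size). On GRCm38 (GENCODE vM21), the genes called in a comparison lie at chr7:144929931-144939925 (Ccnd1, minus strand), chr17:47505051-47599691 (Ccnd3, plus strand), chr7:38097984-38107534 (Ccne1, minus strand) and chr10:127063534-127067920 (Cdk4, plus strand). Cdk1 and Cdk2 also lie on chromosome 10, and Ccnd2, Ccne2, Ccna2 and Ccnb1 on chromosomes 6, 4, 3 and 13.

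The cells were E14 ESCs grown without feeder cells on gelatin, in medium with serum and LIF. The study compared the parental line with ESC + H/F-PRAMEL7WT, which expresses HA/FLAG-tagged full-length PRAMEL7, and with ESC + H/F-PRAMEL7ΔN, which expresses a tagged form lacking the N-terminal stretch that binds the ubiquitin ligase scaffold CUL2. Both transgenes, driven by a CAG promoter, had been inserted at the Rosa26 locus with Cas9, followed by puromycin selection and isolation of clones from single cells, so each derived line differs from the parental line also by selection and cloning. Per the labels, RNA came from 2 independent dishes of cells (n = 2 libraries per line for every mean ± SD). P values therefore rest on the spread between dishes within a line, pooled over all lines in the fit. The methods text speaks of triplicates instead, and a further replicate was not analysed here.

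Cyclins are unstable regulatory subunits whose abundance sets which CDK is active at which moment of the cell cycle. D-type cyclins bind CDK4 or CDK6 in response to growth signals and start the phosphorylation of the RB proteins, E-type cyclins with CDK2 drive entry into S phase, cyclin A acts in S phase and later, and cyclin B with CDK1 drives mitosis. ESCs are known for a short gap phase before S phase, high cyclin E and CDK2 activity throughout the cycle, and little D-type cyclin compared with differentiated cells.

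Reads assigned to genes numbered 18250558 to 19850667 per library. Pramel7 was at 0.258 and 0.217 CPM in the parental libraries, 51.2 and 46.2 CPM in PRAMEL7WT and 398 and 431 CPM in PRAMEL7ΔN, so that both transgenes were read in their own lines and the truncated form at 8.50 times the level of the full-length form. All 10 ESC markers examined were expressed, with a summed level of 6925 to 7192 CPM in parental, 6401 to 6677 CPM in PRAMEL7WT and 7682 to 7845 CPM in PRAMEL7ΔN libraries. Of 8 markers each, 3 for fibroblasts or feeders, 3 for primitive endoderm and 5 for trophectoderm passed the filter. Fibroblast markers summed to 52.2 to 71.4 CPM in parental, 25.1 to 26.6 CPM in PRAMEL7WT and 46.8 to 53.7 CPM in PRAMEL7ΔN libraries, with Lum and Dcn at 0 in all 6. Primitive endoderm markers summed to 5.86 to 8.51, 10.6 to 11.6 and 8.82 to 9.84 CPM in the same order, without overlap, and trophectoderm markers to 90.2 to 134, 96.7 to 99.998 and 84.6 to 87.9 CPM. By the test described below, 4 of 10 ESC markers (Nanog, Zfp42, Klf4 and Tdgf1), all 3 fibroblast markers and Krt18 fell in PRAMEL7WT against parental, where the endoderm markers Gata4 and Sox7 rose. In PRAMEL7ΔN, Dppa5a, Gata4, Hand1, Krt8 and Krt18 rose and Tfap2c fell. Over all tested genes, 8.71% rose and 16.3% fell in PRAMEL7WT, and 6.25% and 13.6% in PRAMEL7ΔN. The part of these markers in the differences below was not tested. The parental libraries differed most from each other, with a median variance of 6.78 times that of counting, against 1.67 for PRAMEL7WT and 2.65 for PRAMEL7ΔN.

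Promoter sequences are shown for 3 members: Ccnd3, which had the largest rise of the 10 genes in both derived lines, Cdk4, which was higher in PRAMEL7WT than in both other lines, and Cdk1, which passed the test in none of the 3 comparisons. Each is the 250 bases before the RefSeq transcription start, 5′ to 3′ on the gene's strand, on GRCm38.p6: Ccnd3, upstream of its distal start, at chr17:47504801-47505050 (plus strand), Cdk4 at chr10:127063285-127063534 (plus strand), and Cdk1 at chr10:69352913-69353162 (minus strand). Capitals mark matches, on either strand, to motifs of cell-cycle promoters. The E2F site was searched as TTTGGCGC, TTTCCCGC, TTTGCCGC or TTTCGCGC. The CHR element, found in promoters that are active late in the cycle, was searched as TTTGAA. A variant of that element was searched as well, with the letters TTCGAA. The CCAAT box was searched by the letters of its name. The E-box, which is the core bound by MYC proteins, was searched as CACGTG. No match of one motif overlapped a match of another in the members' windows.
Ccnd3: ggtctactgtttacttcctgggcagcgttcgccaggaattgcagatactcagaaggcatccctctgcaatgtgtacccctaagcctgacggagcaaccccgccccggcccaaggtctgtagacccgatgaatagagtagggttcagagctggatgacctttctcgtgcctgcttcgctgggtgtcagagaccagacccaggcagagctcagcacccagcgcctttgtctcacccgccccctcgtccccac
Cdk4: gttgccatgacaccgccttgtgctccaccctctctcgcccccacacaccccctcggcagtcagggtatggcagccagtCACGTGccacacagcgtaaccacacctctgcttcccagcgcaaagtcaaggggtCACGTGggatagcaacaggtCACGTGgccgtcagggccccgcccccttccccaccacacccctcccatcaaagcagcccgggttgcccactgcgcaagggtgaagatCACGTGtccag
Cdk1: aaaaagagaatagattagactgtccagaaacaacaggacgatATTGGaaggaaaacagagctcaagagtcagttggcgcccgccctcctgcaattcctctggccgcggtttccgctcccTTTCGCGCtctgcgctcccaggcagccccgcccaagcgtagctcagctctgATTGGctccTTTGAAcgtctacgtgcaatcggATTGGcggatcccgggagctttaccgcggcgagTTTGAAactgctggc
The Cdk4 window held 4 E-boxes, the first letter of each lying 172, 118, 98 and 11 bases before the start. At least 1 E-box was present in 6.02% of the 32851 promoter windows of this length. The Cdk1 window held 1 E2F site, 131 bases before the start, 2 CHR elements at 71 and 15 bases and 3 CCAAT boxes on the opposite strand at 208, 80 and 48 bases. At least 1 match of these motifs was present in 1.86%, 17.1% and 33.8% of all windows, in the same order. Shares of windows with more matches were not counted. The Ccnd3 window upstream of the distal start held none of the 4 motifs, and the window upstream of its second start, at chr17:47593217-47593466, held 1 CCAAT box. The Cdk2 window held 1 E2F site and 1 CCAAT box, the Ccnb1 window 2 CCAAT boxes and the Ccne1 window none of the 4 motifs. Promoters of Ccnd1, Ccnd2, Ccne2 and Ccna2 were not analysed here. A match is a string of letters and not a measured binding site.

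Differences between lines were tested with limma on log2(CPM + 1), with all 6 libraries in one fit and Benjamini-Hochberg adjustment over the 12914 genes. A gene was called at an adjusted P value under 0.05, fold changes are on that log2 scale with their standard error (SE), and 95% intervals are unadjusted. Against the parental line, 4 of 10 members rose in PRAMEL7WT and 0 fell, whereas 8.71% of all tested genes rose and 16.3% fell. In PRAMEL7ΔN, 2 of 10 rose and 1 fell, beside 6.25% and 13.6% of all tested genes. The balance of these shares depends on the scaling. With median-ratio scaling 13.6% of all tested genes rose and 11.2% fell in PRAMEL7WT, beside 4 and 0 members, and 9.03% rose and 10.3% fell in PRAMEL7ΔN, beside 4 and 0 members. Between the derived lines, 2 of 10 were higher in PRAMEL7WT and 0 lower, beside 10.9% and 9.44% of all tested genes. At an unadjusted P value under 0.05 the counts of lower members in PRAMEL7WT were also 0 against parental (25.4% of all tested genes) and 0 against PRAMEL7ΔN (17.6%), and limma with voom on recovered reads gave 0 in both. Both comparisons with the parental line share its 2 libraries. The median log2 fold change of the 10 members was 0.19 in PRAMEL7WT and 0.18 in PRAMEL7ΔN against parental, and that of all tested genes −0.08 and −0.06. In bulk RNA, more cells in a given cell-cycle phase and more mRNA per cell cannot be told apart.

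**Figure D1:**
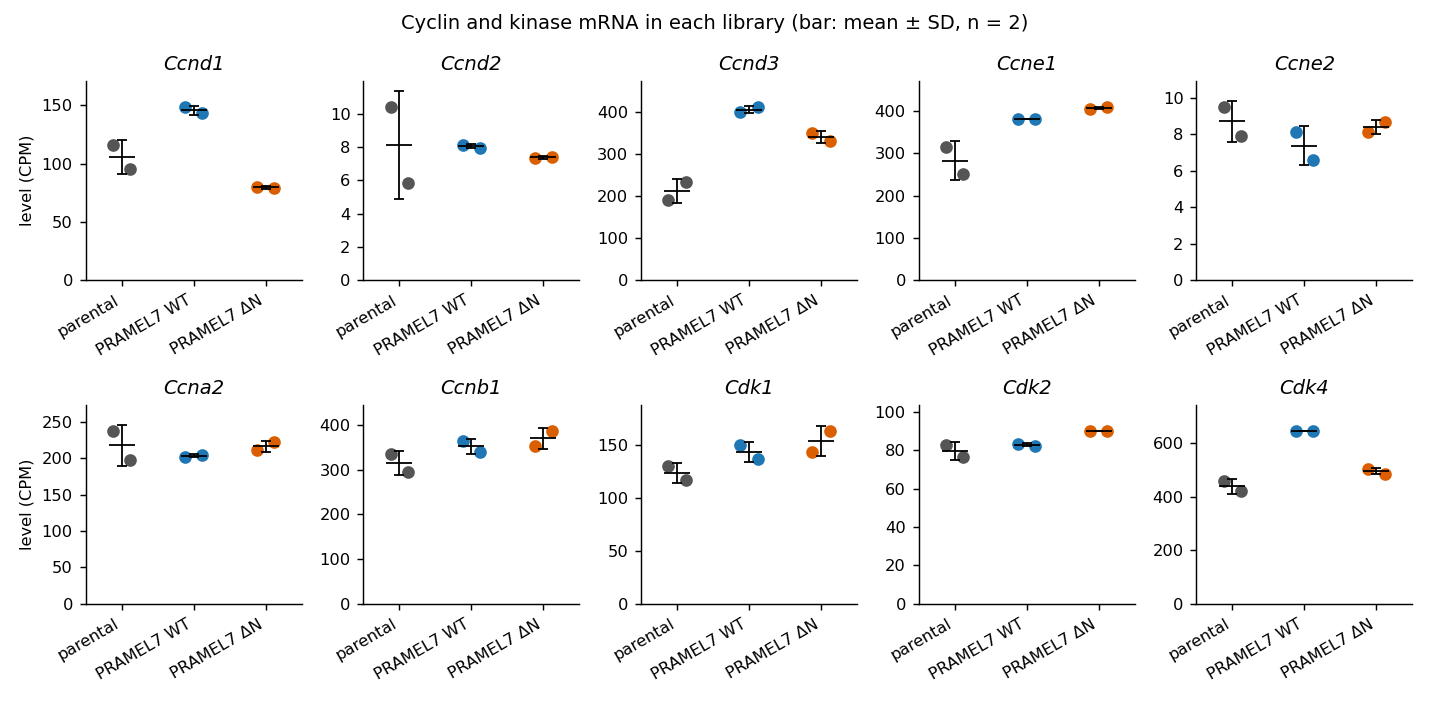
Level of each of the 10 genes (CPM, vertical axes from 0, scaled per gene) in the 2 libraries of parental, PRAMEL7WT and PRAMEL7ΔN ESCs, as points, with the mean ± SD (n = 2) as a bar. Ccnd3 is higher in both derived lines, Ccnd1 is highest in PRAMEL7WT (143 and 148 CPM) and lowest in PRAMEL7ΔN (78.8 and 80.3 CPM), and Cdk4 is highest in PRAMEL7WT.

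Among the D-type cyclins, the 3 genes behaved differently. Ccnd3 was measured at 192 and 233 CPM in parental, 399 and 411 CPM in PRAMEL7WT and 351 and 330.2 CPM in PRAMEL7ΔN libraries. All 4 libraries of the derived lines lay above both parental libraries. Ccnd3 rose by 0.94 on the log2 scale (SE 0.10, 1.91-fold, limma adjusted P = 0.000848) in PRAMEL7WT and by 0.69 (SE 0.10, 1.61-fold, adjusted P = 0.00209) in PRAMEL7ΔN. Both calls held in all 17 alternative fits. Between the derived lines the PRAMEL7WT libraries were both above the PRAMEL7ΔN libraries, by 0.25 (SE 0.10, interval 0.02 to 0.48), and the test was not passed (adjusted P = 0.111). It was passed without parental replicate 1 (adjusted P = 0.0109), without parental replicate 2 (0.0110) and when only the compared lines were fitted (0.0111), with the same difference of 0.25.

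Ccnd1, the D-type cyclin best known as a target of mitogen and Wnt signals, was measured at 116 and 94.96 CPM in parental, 148 and 143 CPM in PRAMEL7WT and 80.3 and 78.8 CPM in PRAMEL7ΔN libraries. The 3 lines did not overlap, with PRAMEL7WT highest and PRAMEL7ΔN lowest. Ccnd1 was higher in PRAMEL7WT than in PRAMEL7ΔN by 0.86 (SE 0.11, 1.82-fold, adjusted P = 0.000708), a call that held in all 17 alternative fits. Relative to the parental line it rose by 0.47 (SE 0.11, 1.38-fold, adjusted P = 0.0128) in PRAMEL7WT, and fell by 0.40 (SE 0.11, 1.32-fold, adjusted P = 0.0275) in PRAMEL7ΔN. Only 86 of the 12914 genes, or 0.666%, were called higher in PRAMEL7WT and lower in PRAMEL7ΔN, and Ccnd1 was the one member among them. The fall in PRAMEL7ΔN was the less stable of these calls. It was −0.31 with adjusted P = 0.0744 when libraries were rescaled by the median of ratios, and its adjusted P value was 0.132 and 0.143 without PRAMEL7ΔN replicate 1 or 2 and 0.0692 and 0.0686 without PRAMEL7WT replicate 1 or 2. The rise in PRAMEL7WT missed the limit without PRAMEL7WT replicate 1 (0.44, adjusted P = 0.115) or replicate 2 (0.49, adjusted P = 0.0866). The annotated exons of Ccnd1 share 1100 bases, 23.4% of their length, with the gene LTO1 on the opposite strand, which was not analysed here, and the library kit did not mark strand.

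Ccnd2 was scarce, with 10.4 and 5.86 CPM in parental, 8.15 and 7.98 CPM in PRAMEL7WT and 7.33 and 7.44 CPM in PRAMEL7ΔN libraries. The parental libraries enclosed all others. Its difference from parental was 0.03 (SE 0.22, interval −0.45 to 0.52) in PRAMEL7WT and −0.08 (SE 0.22, interval −0.56 to 0.41) in PRAMEL7ΔN. Changes within these intervals could thus not be told from none. The parental libraries held 108 to 202 reads of Ccnd2, and Ccne2, at 146 to 184 parental reads, had an SE of 0.16. The parts of depth and of the spread between parental dishes in these intervals were not tested. The genes around Ccnd2 stood apart from Ccnd2 itself. The 78 tested genes within 5 Mb of it on chromosome 6 had a median 0.43 above that of all tested genes in PRAMEL7ΔN against parental and −0.10 in PRAMEL7WT, and the 602 tested genes of that chromosome 0.30 and −0.18. The same windows around Ccnd1 had medians 0.22 (PRAMEL7WT) and 0.14 (PRAMEL7ΔN) above that of all genes, whereas Ccnd1 itself moved in opposite directions. Around Ccnd3 they were 0.10 and 0.01 above, and Ccnd3 itself was 1.01 and 0.74 above the median of all tested genes. In PRAMEL7WT against PRAMEL7ΔN, the 602 tested genes of chromosome 6 had a median of −0.38 relative to that of all tested genes. The list genes described below were not sorted by chromosome, so any on chromosome 6 were not set apart from this shift. Cdkn1b, Cul1, Foxm1 and Mad2l1, which rose in PRAMEL7ΔN, were among the list genes not set apart. The part of these neighbourhoods in the differences of members and list genes was not tested.

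**Figure D2:**
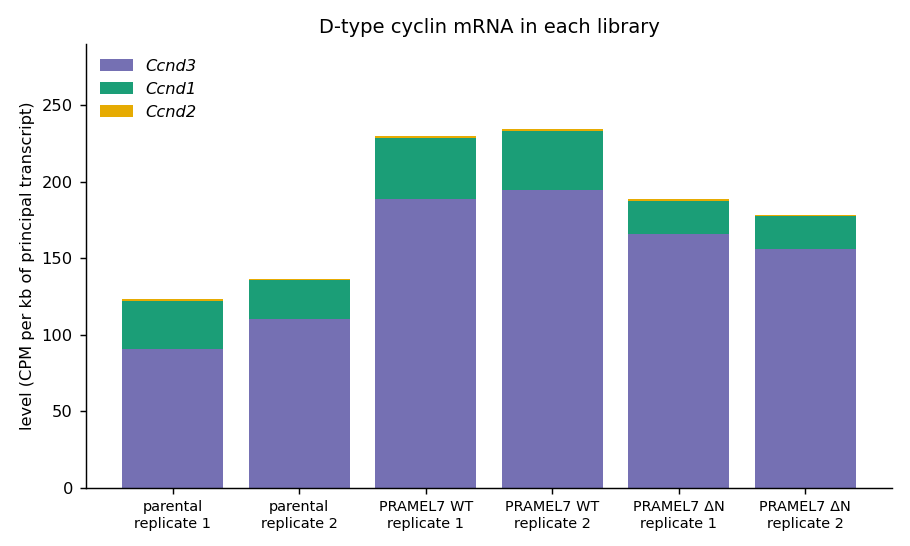
D-type cyclin mRNA in each of the 6 libraries, as CPM per kilobase of the principal transcript (vertical axis from 0), stacked by gene. The sum is 123 and 136 in parental, 229.8 and 234 in PRAMEL7WT and 189 and 179 in PRAMEL7ΔN libraries, and by this length Ccnd3 forms the larger block in all 6. By the length of all exons joined, Ccnd1 exceeds Ccnd3 in parental replicate 1 (24.7 against 21.8).

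Per kilobase of principal transcript, the 3 D-type cyclins together stood at 129.95 ± 9.25 (SD, n = 2) in parental, 232 ± 3.11 in PRAMEL7WT and 184 ± 7.05 in PRAMEL7ΔN ESCs. Ccnd3 made up 73.5% and 80.7% of this sum in the parental libraries, 82.2% and 83.1% in PRAMEL7WT and 88.0% and 87.5% in PRAMEL7ΔN. Ccnd1 made up 25.2% and 18.6%, 17.3% and 16.3%, and 11.4% and 11.8%, respectively. The share of Ccnd3 was highest in PRAMEL7ΔN and did not overlap between lines, and Ccnd2 stayed at or under 1.33%. The ratio of Ccnd3 to Ccnd1 per kilobase was 2.92 and 4.34 in parental, 4.76 and 5.10 in PRAMEL7WT and 7.73 and 7.42 in PRAMEL7ΔN libraries. These shares and ratios depend on the length used. With all annotated exons joined, the share of Ccnd3 was 45.9% and 56.1% in parental, 58.4% and 60.05% in PRAMEL7WT and 69.2% and 68.2% in PRAMEL7ΔN libraries. The ratio to Ccnd1 was then 0.886 and 1.32 in parental, 1.44 and 1.54 in PRAMEL7WT and 2.34 and 2.25 in PRAMEL7ΔN libraries.

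Of the E-type cyclins, only Ccne1 was abundant. It was measured at 316 and 250.3 CPM in parental, 382 and 381 CPM in PRAMEL7WT and 405 and 409.9 CPM in PRAMEL7ΔN libraries. The parental libraries were lower than all others and lay farthest apart. Ccne1 rose by 0.44 (SE 0.11, 1.36-fold, adjusted P = 0.0177) in PRAMEL7WT and by 0.53 (SE 0.11, 1.45-fold, adjusted P = 0.00846) in PRAMEL7ΔN. The derived lines differed by −0.09 (interval −0.34 to 0.15). The call in PRAMEL7WT was lost without PRAMEL7WT replicate 1 (adjusted P = 0.120) or 2 (0.115), and that in PRAMEL7ΔN without PRAMEL7ΔN replicate 1 (0.0697) or 2 (0.0687), with log2 fold changes of 0.44, 0.44, 0.54 and 0.53. The call in PRAMEL7WT was also lost without the mean-variance trend (adjusted P = 0.0557), without a filter (0.069) and with RPKM not converted (0.0669).

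Ccne2, the second E-type cyclin, was at 9.49 and 7.92 CPM in parental, 8.15 and 6.61 CPM in PRAMEL7WT and 8.13 and 8.66 CPM in PRAMEL7ΔN libraries. All 3 lines overlapped. Its differences from parental were −0.21 (interval −0.57 to 0.14) and −0.04 (interval −0.40 to 0.31). Its exons share 609 bases, 17.4% of their length, with Ints8 on the opposite strand, so part of its few reads cannot be assigned to one gene.

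Cyclin A2 and cyclin B1 did not pass the test in any comparison. Ccna2 was at 238 and 197 CPM in parental, 201 and 204 CPM in PRAMEL7WT and 211 and 222 CPM in PRAMEL7ΔN libraries. The parental libraries again enclosed the others, with differences of −0.09 (interval −0.32 to 0.13) and −0.0017 (interval −0.23 to 0.22). Ccnb1 was at 334 and 295 CPM in parental, 364 and 340.3 CPM in PRAMEL7WT and 353 and 387 CPM in PRAMEL7ΔN libraries. All 4 libraries of the derived lines exceeded both parental libraries, by 0.16 (SE 0.09, interval −0.05 to 0.37, adjusted P = 0.225) in PRAMEL7WT and 0.23 (SE 0.09, interval 0.02 to 0.44, adjusted P = 0.114) in PRAMEL7ΔN. Ccnb1 would have been called in both without parental replicate 1 (0.25, adjusted P = 0.0418, and 0.32, adjusted P = 0.0117). The ratio of Ccne1 to Ccna2 per kilobase was 1.97 and 1.88 in parental, 2.81 and 2.77 in PRAMEL7WT and 2.85 and 2.74 in PRAMEL7ΔN libraries. Within each library, cyclin E1 mRNA was thus higher relative to cyclin A2 mRNA in every derived library than in either parental library. The exons of Ccna2 share 510 bases, 12.5% of their length, with Exosc9 on the opposite strand. Exosc9 differed from parental by −0.32 in PRAMEL7WT and −0.24 in PRAMEL7ΔN (limma adjusted P = 0.0961 and 0.232). The part of shared reads in the values of Ccna2 was not tested.

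**Figure D3:**
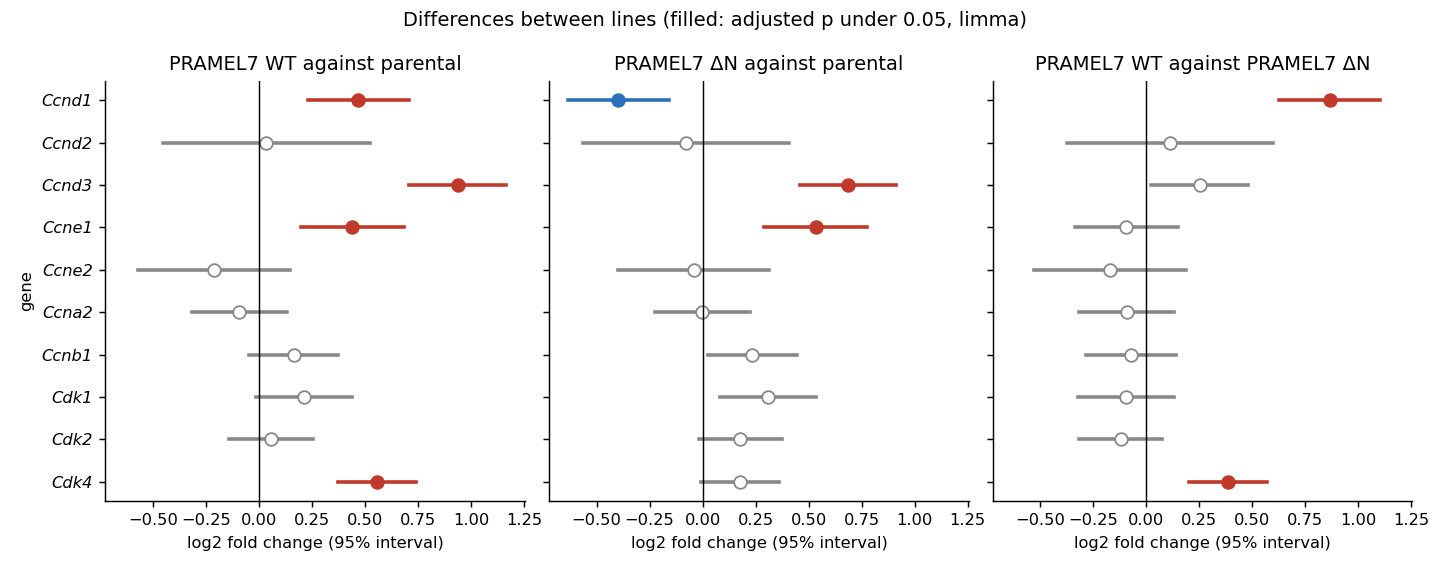
Log2 fold change (horizontal axis) of the 10 genes in the 3 comparisons, with 95% intervals as lines and filled points for an adjusted P value under 0.05 (red higher, blue lower). Ccnd1 is above 0 against parental in PRAMEL7WT (0.47), below 0 in PRAMEL7ΔN (−0.40) and differs most between the derived lines (0.86), whereas Ccnd3 and Ccne1 are above 0 in both.

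Of the kinases, Cdk4, the partner of the D-type cyclins, was measured at 457 and 419 CPM in parental, 645 and 644 CPM in PRAMEL7WT and 502 and 486 CPM in PRAMEL7ΔN libraries. The 3 lines did not overlap. Cdk4 rose by 0.56 (SE 0.08, 1.47-fold, adjusted P = 0.00236) in PRAMEL7WT, a call that held in all 17 alternative fits, and was 0.17 above parental in PRAMEL7ΔN (SE 0.08, interval −0.01 to 0.36, adjusted P = 0.172). Without parental replicate 1 the latter was 0.24 with adjusted P = 0.0439. The difference between the derived lines was itself 0.38 (SE 0.08, 1.30-fold, adjusted P = 0.0113). It was lost without PRAMEL7WT replicate 1 (0.38, adjusted P = 0.108) or 2 (0.39, 0.104) and without PRAMEL7ΔN replicate 1 (0.41, 0.0589) or 2 (0.36, 0.107). Cdk4 shares 641 exonic bases, 19.7% of its exon length, with Tspan31 on the opposite strand. Tspan31 was at 33.5 to 44.7 CPM as line means and fell by 0.33 (adjusted P = 0.0437) in PRAMEL7WT. The part of shared reads in the values of Cdk4 was not tested.

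Cdk2, the partner of cyclins E and A, was at 82.7 and 76.2 CPM in parental, 83.2 and 82.1 CPM in PRAMEL7WT and 89.9 and 90.1 CPM in PRAMEL7ΔN libraries. The PRAMEL7ΔN libraries were above all others. The differences from parental were 0.06 (interval −0.14 to 0.25) and 0.18 (interval −0.02 to 0.38, adjusted P = 0.194). The ratio of Cdk4 to Cdk2 per kilobase was 6.02 and 5.998 in parental, 8.46 and 8.55 in PRAMEL7WT and 6.09 and 5.88 in PRAMEL7ΔN libraries. It was higher in PRAMEL7WT alone, while the parental and PRAMEL7ΔN libraries overlapped.

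Cdk1, the mitotic kinase, was at 129.8 and 117 CPM in parental, 149 and 137 CPM in PRAMEL7WT and 143 and 163 CPM in PRAMEL7ΔN libraries. Both derived lines were above the parental line without overlap. The differences were 0.21 (SE 0.10, interval −0.01 to 0.44, adjusted P = 0.149) and 0.31 (SE 0.10, interval 0.08 to 0.53, adjusted P = 0.0595). Without parental replicate 1 they were 0.29 (adjusted P = 0.0348) and 0.38 (adjusted P = 0.00708), and with median-ratio scaling the difference in PRAMEL7ΔN was 0.39 (adjusted P = 0.0265). In the count of members whose libraries did not overlap with parental, 6 of 10 were higher and 0 lower in PRAMEL7WT, beside 24.3% and 40% of all tested genes. In PRAMEL7ΔN 6 were higher and 1 lower, beside 21.6% and 35.4%. Between the derived lines 4 were higher in PRAMEL7WT and 3 lower, beside 33.2% and 35.6%.

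Per kilobase of principal transcript, Cdk4 was the most abundant of the 10 mRNAs in all 3 lines, at 213 ± 13.0 (SD, n = 2) in parental, 314 ± 0.608 in PRAMEL7WT and 241 ± 5.64 CPM per kilobase in PRAMEL7ΔN ESCs. In the parental line it was followed by Ccne1 (142 ± 23.2), Ccnb1 (126 ± 11.04), Ccnd3 (100.4 ± 13.8), Ccna2 (73.3 ± 9.61), Cdk2 (35.5 ± 2.06), Ccnd1 (28.2 ± 4.005), Cdk1 (28.2 ± 2.07), Ccne2 (2.90 ± 0.371) and Ccnd2 (1.29 ± 0.510). The libraries of Ccne1 and Ccnb1 overlapped, as did those of Ccnd1 and Cdk1. In PRAMEL7WT, Ccnd3 (192 ± 4.17) moved up beside Ccne1 (191 ± 0.321), with overlapping libraries, and Ccnd1 (39.0 ± 1.04) stood above Cdk2 (36.9 ± 0.357) and Cdk1 (32.7 ± 2.07). In PRAMEL7ΔN the order was Cdk4, Ccne1 (204 ± 1.57), Ccnd3 (161 ± 6.80), Ccnb1 (149 ± 9.68), Ccna2 (72.9 ± 2.496), Cdk2 (40.2 ± 0.0546), Cdk1, Ccnd1 (21.3 ± 0.271), Ccne2 and Ccnd2, with no overlap between neighbours. The order depends on the length used. With the length of all annotated exons joined, Ccnd3 was at 24.2 CPM per kilobase in the parental line, below Cdk1 (25.0), and Ccne1 (153) stood level with Cdk4 (152) in PRAMEL7ΔN. In PRAMEL7WT, Ccnd3 (46.2) then stood below Ccne1 (143), Ccnb1 (83.4) and Ccna2 (49.7) instead of beside Ccne1.

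The likeness of the members' patterns over the 6 libraries was described by Pearson's r of log2 values, without a test, since the libraries come from only 3 lines. Cdk1 and Ccnb1, whose products form one complex, had r = 0.988, and Ccnb1 was the gene most like Cdk1 among 8559 genes at a mean of at least 10 CPM. For the other members the most alike genes were Lrig3 for Ccnd1 (0.999), Mapk14 for Ccnd2 (0.978), Sigirr for Ccnd3 (0.995), S100a10 for Ccne1 (0.997), Virma for Ccne2 (0.985), Ifnar1 for Ccna2 (0.988), Fam84b for Ccnb1 (0.990), Nop10 for Cdk2 (0.998) and Lgals3 for Cdk4 (0.997). With so many genes searched and 6 points, values near 1 are found for any gene. Ccnd3 and Cdk4 had r = 0.831, Ccnd1 and Cdk4 0.713, and Ccnd1 and Ccnd3 0.244.

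Of the CDK inhibitors, which bind and block cyclin–CDK complexes, 7 were listed and 6 tested, Cdkn2c staying at 0.106 to 0.551 CPM. In PRAMEL7WT 1 rose and 0 fell, and in PRAMEL7ΔN 1 rose and 0 fell, but these were different genes. At an unadjusted P value under 0.05 0 fell in either, and with voom 0. Over all tested genes, 8.71% were called higher and 16.3% lower in PRAMEL7WT, and 6.25% and 13.6% in PRAMEL7ΔN. Cdkn1b, which encodes the inhibitor of CDK2 complexes known as KIP1, was at 31.8 and 45.0 CPM in parental, 30.1 and 33.5 CPM in PRAMEL7WT and 62.8 and 60.3 CPM in PRAMEL7ΔN libraries. The PRAMEL7ΔN libraries stood above the other 4, by 0.69 (SE 0.15, adjusted P = 0.0121) against parental, and PRAMEL7WT was 0.93 below PRAMEL7ΔN (SE 0.15, 1.91-fold, adjusted P = 0.00284). The call against parental was lost without a filter and without PRAMEL7ΔN replicate 1 (0.66) or 2 (0.72). The chromosome 6 shift described above was not set apart for Cdkn1b, and its part in these differences was not tested. Cdkn2a, whose locus encodes an inhibitor of CDK4 and CDK6 and also ARF, which these gene-level values cannot separate, was at 6.55 and 8.51 CPM in parental, 12.3 and 15.4 CPM in PRAMEL7WT and 6.22 and 6.33 CPM in PRAMEL7ΔN libraries. It was highest in both PRAMEL7WT libraries, 0.80 above parental (SE 0.17, adjusted P = 0.00985) and 1.02 above PRAMEL7ΔN (SE 0.17, adjusted P = 0.00332), and without PRAMEL7WT replicate 2 these were 0.65 (adjusted P = 0.107) and 0.87 (adjusted P = 0.0554). Cdkn1a, Cdkn1c, Cdkn2b and Cdkn2d were not called, and among them Cdkn2d came nearest, 0.39 above parental in PRAMEL7WT (SE 0.13, adjusted P = 0.0545). Its adjusted P value was 0.0263 with median-ratio scaling and 0.0402 without parental replicate 1.

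**Figure D4:**
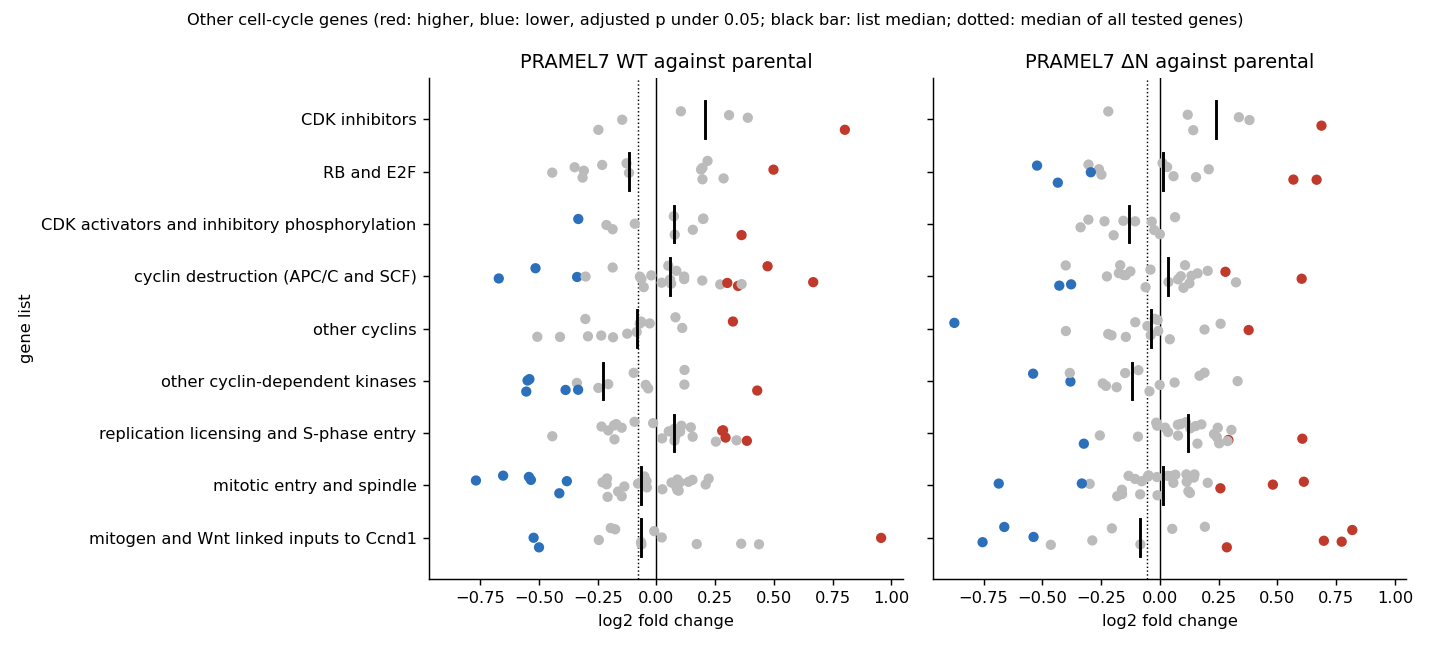
Log2 fold change against parental (horizontal axes) of 9 lists of other cell-cycle genes in PRAMEL7WT and PRAMEL7ΔN, 1 point per tested gene, red and blue for an adjusted P value under 0.05, with the list median as a black bar and the median of all tested genes as a dotted line. Points spread to both sides in most lists, and 1 of 6 CDK inhibitors is red in each panel.

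For counts of 0 in the lists that follow, the count at an unadjusted P value under 0.05 is added, and voom gave 0 in each of them. Where a named call held in 10 or fewer of the 17 alternative fits, that number is given. The counts of each list stand beside 8.71% of all tested genes rising and 16.3% falling in PRAMEL7WT, and 6.25% and 13.6% in PRAMEL7ΔN. Of 15 other cyclins tested, 1 rose and 0 fell in PRAMEL7WT (4 unadjusted), and 1 rose and 1 fell in PRAMEL7ΔN. Ccnf, a cyclin that acts as a substrate receptor of the SCF ubiquitin ligase, rose in both, by 0.33 (SE 0.08, adjusted P = 0.0177) and 0.38 (SE 0.08, adjusted P = 0.0105). The one that fell was Ccno (−0.87, adjusted P = 0.0102), which is named here after its value was seen. Its mean was under the 10 CPM asked for naming, and its alternative fits are not given here. Of 14 other CDKs tested, 1 rose and 5 fell in PRAMEL7WT, and 0 rose (1 unadjusted) and 2 fell in PRAMEL7ΔN. With median-ratio scaling 1 of them rose and 3 fell in PRAMEL7WT, and 0 rose and 1 fell in PRAMEL7ΔN. Cdk6, the other kinase of the D-type cyclins, rose in PRAMEL7WT by 0.43 (SE 0.14, adjusted P = 0.0485) from a parental 20.5 ± 3.95 CPM (SD, n = 2), a call that held in 6 of 17 alternative fits, with adjusted P values up to 0.219. Without parental replicate 2 it was 0.24 (adjusted P = 0.146). In PRAMEL7ΔN Cdk6 was 0.33 above parental (adjusted P = 0.129). Among those that fell were Cdk12, a transcription elongation kinase (−0.55 in PRAMEL7WT), and Cdk16 (−0.55 in PRAMEL7WT and −0.54 in PRAMEL7ΔN).

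The RB and E2F list, with the targets of the G1 kinases, held 13 tested genes. In PRAMEL7WT 1 rose and 0 fell (4 unadjusted), and in PRAMEL7ΔN 2 rose and 3 fell. E2f2, an activating E2F, rose in both lines, by 0.50 (adjusted P = 0.0124) and 0.67 (adjusted P = 0.00359). E2f8 rose (0.57, adjusted P = 0.00765) and E2f7, a repressive E2F like E2f8, fell (−0.52, adjusted P = 0.00798) in PRAMEL7ΔN, where the RB relative Rbl1 also fell (−0.43, adjusted P = 0.0450). The call of Rbl1 held in 7 of 17 alternative fits, and without PRAMEL7ΔN replicate 1 it was −0.27 (adjusted P = 0.303). With median-ratio scaling 4 genes of this list rose in PRAMEL7WT and 1 fell in PRAMEL7ΔN. Of 10 genes that load, activate or restrain CDKs, 1 rose and 1 fell in PRAMEL7WT, and in PRAMEL7ΔN 0 rose (0 unadjusted) and 0 fell (1 unadjusted). The one that rose was Cdc37, the cochaperone that delivers CDK4 to HSP90, which was at 276 and 319.6 CPM in parental, 382 and 381 CPM in PRAMEL7WT and 272 and 246 CPM in PRAMEL7ΔN libraries. As for Cdk4, both PRAMEL7WT libraries were above all others, by 0.36 against parental (SE 0.10, adjusted P = 0.0241) and 0.56 against PRAMEL7ΔN (SE 0.10, adjusted P = 0.00398).

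Of 23 genes of cyclin destruction (the APC/C and SCF ubiquitin ligases), 4 rose and 3 fell in PRAMEL7WT, and 2 rose and 2 fell in PRAMEL7ΔN. Both activators of the APC/C, which marks cyclins A and B for degradation, rose in PRAMEL7WT, Fzr1 by 0.67 (adjusted P = 0.00396) and Cdc20 by 0.47 (adjusted P = 0.00415), while its subunit gene Cdc27 fell by 0.67 (adjusted P = 0.00379). In PRAMEL7ΔN Cdc20 rose by 0.28 (adjusted P = 0.0372, held in 7 of 17 alternative fits) and Cdc27 fell by 0.38 (adjusted P = 0.0410, held in 5). Cul1, the scaffold of SCF, rose there as well (0.60, adjusted P = 0.0135), and Btrc, an SCF substrate receptor, fell (−0.43, adjusted P = 0.0154). With median-ratio scaling 6 genes of this list rose and 1 fell in PRAMEL7WT, and 3 rose and 1 fell in PRAMEL7ΔN. Of 24 genes of replication licensing and S-phase entry, 4 rose and 0 fell (2 unadjusted) in PRAMEL7WT, and among the former were Cdt1 (0.38) and Mcm5 (0.29, held in 7 of 17 alternative fits). In PRAMEL7ΔN 2 rose, Rrm2 (0.61, held in all 17) and Mcm4 (0.29, held in 5), and 1 fell, Mcm2 (−0.32, held in 10). With median-ratio scaling 6 rose and 0 fell in both lines. Of 28 genes of mitotic entry and spindle, 0 rose (0 unadjusted) and 6 fell in PRAMEL7WT, led by the securin gene Pttg1 (−0.77, adjusted P = 0.00114) and the spindle motor gene Cenpe (−0.65, adjusted P = 0.0116). In PRAMEL7ΔN 3 rose and 2 fell, and Pttg1 fell as well (−0.69, adjusted P = 0.00122), while Mad2l1 (0.61) and Foxm1 (0.48) rose. The part of the chromosome 6 shift in the rises of Mad2l1, Foxm1 and Cul1 was not tested. Over all tested genes, 8.71% rose and 16.3% fell in PRAMEL7WT, and 6.25% and 13.6% in PRAMEL7ΔN. With median-ratio scaling 0 genes of this list rose and 4 fell in PRAMEL7WT, and 4 rose and 1 fell in PRAMEL7ΔN.

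Of 13 genes of mitogen and Wnt signals that act on Ccnd1, 1 rose and 2 fell in PRAMEL7WT, beside 8.71% and 16.3% of all tested genes. In PRAMEL7ΔN 4 rose and 3 fell, beside 6.25% and 13.6%. Tcf7l1, a repressor of Wnt targets, rose in both, by 0.96 (adjusted P = 0.000818) and 0.82 (adjusted P = 0.000804). Myc was at 46.2 and 40.5 CPM in parental, 43.6 and 42.4 CPM in PRAMEL7WT and 76.3 and 73.1 CPM in PRAMEL7ΔN libraries. It was higher only in the PRAMEL7ΔN libraries, by 0.77 against parental (SE 0.10, adjusted P = 0.00109), and PRAMEL7WT was 0.78 below PRAMEL7ΔN (adjusted P = 0.000956). Mycn had the opposite pattern, with 145 and 189.7 CPM in parental, 143 and 150.1 CPM in PRAMEL7WT and 99.3 and 96.5 CPM in PRAMEL7ΔN libraries. It fell in PRAMEL7ΔN by 0.75 (SE 0.12, adjusted P = 0.00288) and was 0.58 higher in PRAMEL7WT than in PRAMEL7ΔN (adjusted P = 0.00976). Egr1, an immediate response gene of growth signals, fell in PRAMEL7ΔN by 0.54 (SE 0.11, adjusted P = 0.00854), from 39.8 and 34.98 CPM to 25.9 and 24.9 CPM. In PRAMEL7WT Egr1 differed from parental by −0.06, with overlapping libraries.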

How the data were processed

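RNA-seq of 3 mouse ESC lines (2 libraries each) was analysed. Per the study's methods and the labels, the authors prepared poly(A) libraries without strand marking, sequenced single ends, removed ribosomal reads (SortMeRNA), trimmed (Trimmomatic), mapped with STAR to mm10 and deposited RPKM values per gene. The submitters' processing notes also name Bowtie2 2.3.4.3 and Subread 1.4.6-p4. The authors' deposited tables of DESeq2 comparisons (log2 fold changes, standard errors, P values, mean counts) were not used, and samples of other assays were not analysed here.

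Of 50978 genes, 176 with a repeated or date-like name, 2796 without and 66 with several matches in GENCODE vM21 were left out, which left 47940. The deposited RPKM used the gene span as length. RPKM times span gave whole reads (within 0.1, for values up to 20 reads) for 98.1 to 98.4% of low values, against 13.4 to 20.9% with exon length. Values were put on a CPM scale with the scaling of the authors kept, and limma 3.58.1 in R 4.3.3 was run with a mean-variance trend on log2(CPM + 1). The analysis was tested on simulated data. Tables used python 3.11.15, numpy 2.4.6 and pandas 2.3.3, and figures matplotlib 3.10.9.

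All 10 members are named. From each list, the 2 genes with the largest called change per comparison and direction at a mean of at least 10 CPM were eligible for naming, plus all 7 CDK inhibitors. Members and lists were chosen with earlier results of these data known. Alternatives were pseudocounts of 0.1 and 5 CPM, no filter, 10 CPM, 2 other scalings, a replicate block, fits of the compared lines only, no trend, voom on recovered reads, RPKM without conversion, 2 other call rules and leaving out each library. A crossed block and the all-exon length were added after seeing the data.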

Additional observations from a re-analysis of the deposited data

Results flagged for a closer look

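For 22 of the 54 members and list genes eligible for naming, the change against the parental line differed between the derived lines, by the limma test of PRAMEL7WT against PRAMEL7ΔN itself (adjusted P value under 0.05 over 12914 genes, n = 2 libraries per line). List genes were in part chosen by this comparison, so their number is no result, and 10.9% of all tested genes were called higher and 9.44% lower. Of the calls given here, those of Cdc25b, Cdk17, Orc1, Plk1, Cdk18, Cul1 and Rrm2 held in 10 or fewer of 17 alternative fits, which were not tabulated for Cdk12 and Foxm1. All log2 differences given here are PRAMEL7WT minus PRAMEL7ΔN. Among the members, Ccnd1 differed by 0.86 and Cdk4 by 0.38. Both Ccnd1 and Cdk4 were higher in 2 of 2 PRAMEL7WT libraries than in either PRAMEL7ΔN library.

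Of the CDK inhibitors, Cdkn2a differed by 1.02 and Cdkn1b by −0.93. Other CDK genes with lower values in PRAMEL7WT were Cdk18 (−0.60), Cdk17 (−0.39) and Cdk12 (−0.31). Of the genes that load or activate CDKs, Cdc37 differed by 0.56 and Cdc25b by −0.33, with adjusted P = 0.0496 for Cdc25b. Of the E2F genes, E2f7 differed by 0.72 and E2f6 by −0.65.

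Among ubiquitin ligase genes, Anapc5 differed by 0.50 and Cul1 by −0.52. Orc1 (−0.32) and Rrm2 (−0.35), which serve DNA replication, were lower in PRAMEL7WT. Of the mitotic genes, Plk1 differed by 0.38, Foxm1 by −0.39, Cenpe by −0.52 and Mad2l1 by −0.84. Of the signalling genes, Mycn differed by 0.58, Egr1 by 0.47 and Myc by −0.78. Pramel7 mRNA was itself 8.50 times higher in PRAMEL7ΔN, and the part of this in the differences was not tested. Nor was that of the shift of chromosome 6, whose tested genes had a median of −0.38 relative to all tested genes in this comparison.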

How the results depend on the processing

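Against parental, 4 members rose and 0 fell in PRAMEL7WT, and 2 rose and 1 fell in PRAMEL7ΔN. Leaving out 1 library gave 2 to 6 rising and 0 falling in PRAMEL7WT, 1 to 5 rising and 0 to 1 falling in PRAMEL7ΔN, and 1 to 3 higher and 0 lower in PRAMEL7WT than in PRAMEL7ΔN. A lone library was then assumed to vary like the other lines. The number of all tested genes called also moved with the library left out, in both derived lines. These member counts alone therefore do not show a change particular to the members. Median-ratio scaling gave 4 rising (Ccnb1 and Cdk1 added) and 0 falling in PRAMEL7ΔN. The fall of Ccnd1, the one member called lower, was also lost (0 falling) without a filter, without trend, with only the compared lines and with RPKM not converted. A limit of 0.58 on the absolute log2 fold change, with adjusted or unadjusted P values, left 1 rising (Ccnd3) in each line, 0 falling, and 1 higher in PRAMEL7WT than in PRAMEL7ΔN (Ccnd1). This follows from the limit, and the shares of all tested genes under it are not given here.

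Directions turned only for log2 differences not called with the settings reported, of which 1 was called under an alternative (Cdkn1a in PRAMEL7WT without parental replicate 1, −0.30, adjusted P = 0.0258). Against parental in PRAMEL7WT, Ccna2 was 0.0055 with median-ratio scaling and Ccnd2 −0.00046 with RPKM not converted. Leaving out 1 library gave −0.33 to 0.40 for Ccnd2, −0.23 to 0.041 for Ccna2, −0.00099 to 0.12 for Cdk2, −0.30 to 0.0059 for Cdkn1a and −0.042 to 0.25 for Cdkn1c. In PRAMEL7ΔN, Ccne2 was 0.032 and Ccna2 0.082 with median-ratio scaling, and Ccnd2 0.064, Ccne2 0.086 and Ccna2 0.013 with quantile normalization. Leaving out 1 library gave −0.45 to 0.29 for Ccnd2, −0.16 to 0.074 for Ccne2, −0.14 to 0.13 for Ccna2, −0.034 to 0.27 for Cdkn1a and −0.14 to 0.42 for Cdkn2b there, and −0.011 to 0.12 for Cdkn2d between the derived lines. The cause was not tested. Of the settings tried per single gene, 1547 gave the same direction and side of the limit, 356 lost a call and 22 gained one.

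Over all genes, 1125 rose and 2109 fell in PRAMEL7WT and 807 and 1759 in PRAMEL7ΔN. Without PRAMEL7WT replicate 2 only 216 rose in PRAMEL7WT, and without parental replicate 2 1706 did. Without a filter 621 and 1275 were called in PRAMEL7WT and 497 rose in PRAMEL7ΔN, and with median-ratio scaling 1752 rose and 1444 fell in PRAMEL7WT, and 1167 and 1327 in PRAMEL7ΔN, so that rising genes then outnumbered falling ones in PRAMEL7WT. The replicate numbers did not pair the libraries alike in all lines. Correlations of deviations were 0.207 (parental and PRAMEL7WT), −0.249 (parental and PRAMEL7ΔN) and −0.103 (PRAMEL7WT and PRAMEL7ΔN). With the number as a replicate block, 4 members rose in PRAMEL7WT, and 2 rose and 1 fell in PRAMEL7ΔN, with 955 and 1774 genes called in PRAMEL7WT. With the crossed block, which exchanged the replicate numbers of PRAMEL7ΔN, 4 members rose and 1 fell in PRAMEL7ΔN. Whether libraries of different lines shared a batch was not tested. Ccnd2 and Ccne2 had 108 to 202 reads per parental library, and the part of depth in their intervals was not tested.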
